A study of Mus musculus with 48 samples.

Results

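Iron handling was examined through 10 genes, taken as a set because each takes part in moving, storing, releasing or sensing the iron of the cell. The rule was that the gene symbol equals Fth1, Ftl1, Tfrc, Slc11a2, Ireb2, Aco1, Fbxl5, Slc40a1, Ncoa4 or Hmox1, and it found 10 of the 55487 genes in the deposited table. The 10 were chosen by symbol with earlier results from these same libraries already known. The tests below therefore describe these clones and are not independent support for any pattern.

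The study profiled Ba/F3 cells, a mouse pro-B line that grows only with interleukin 3, carrying ribosomal protein mutations made by CRISPR-Cas9. Each clone gave poly(A) RNA-seq and ribosome footprint libraries from the same lysate, so that RNA level and ribosome occupancy can be set side by side. There were 8 genotypes with 3 clones each, 24 clones and 48 libraries in all. Of the 7 mutant genotypes, 5 touch the large ribosomal subunit and the others the small subunit.

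The groups were wild type (WT, clones 1, 2 and 3), heterozygous Rpl5+/- (clones 68, 76 and 80), Rpl11+/- (clones 22, 406 and 414) and Rpl22+/- (clones 13, 16 and 60). Homozygous Rpl22-/- (clones 30, 649 and 776) and homozygous Rpl10 R98S (clones A29, A30 and A34) completed the large-subunit genotypes. The small-subunit genotypes were homozygous Rps15 P131S (clones 20, 24 and 63) and homozygous Rps15 H137Y (clones 16, 2 and 6). All groups grew in RPMI-1640 with interleukin 3 at 1 ng/ml and 10% serum. Cycloheximide, which stalls elongating ribosomes, was added at 0.1 mg/ml 1 min ahead of lysis in all of them. The clones all derive from 1 cell line, so the p-values measure the spread between clones. Values of individual clones are given below in the order of this paragraph.

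Iron-responsive mRNAs are controlled mainly after transcription. Iron regulatory proteins 1 (gene Aco1) and 2 (gene Ireb2) bind hairpins called iron-responsive elements when iron is scarce. A hairpin at the 5′ end of the ferritin mRNAs (Fth1 and Ftl1) blocks their translation, while hairpins at the 3′ end of the transferrin receptor mRNA (Tfrc) protect it from decay. The ubiquitin ligase subunit FBXL5 is stable when iron is plentiful and sends iron regulatory protein 2 for degradation. NCOA4 delivers ferritin to the lysosome for iron release, ferroportin (gene Slc40a1) exports iron, DMT1 (gene Slc11a2) carries iron across the plasma and endosomal membranes, and heme oxygenase 1 (gene Hmox1) frees iron from heme.

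On the GRCm38.p6 build, RefSeq places Fth1 (heavy chain of ferritin) at chr19:9980600-9985111 and Ftl1 (light chain) at chr7:45457944-45459886. The importers lie at chr16:32608896-32632794 for Tfrc and chr15:100387898-100424209 for Slc11a2. The regulators are Ireb2 at chr9:54862658-54912534, Aco1 at chr4:40143265-40199009 and Fbxl5 at chr5:43744618-43782149. Slc40a1 spans chr1:45908070-45926532, Ncoa4 chr14:32159879-32179855 and Hmox1 chr8:75093618-75100593. The counts are per gene, so no value below belongs to 1 exon or to an untranslated region.

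Depth ran from 13029073 to 38258559 counts in the RNA libraries and from 15598994 to 72044439 in the footprint libraries. Of the edited genes, Rpl5 RNA fell in Rpl5+/- by 0.57 on the log2 scale and Rpl11 RNA fell in Rpl11+/- by 0.64, while point mutations cannot be seen in gene counts. The library labelled Rpl22-/- clone 30 had Rpl22 footprints at 1544 CPM (counts per 1000000 counts of the scaled library), against 274 and 317 in the other Rpl22-/- clones and 1428 to 1596 in Rpl22+/-. Pro-B identity was thin: 5 of 14 fixed markers reached 1 CPM on average, and Ebf1, Igll1, Pax5, Rag1, Rag2 and Vpreb2 stayed under 0.5 CPM in every library. Of 10 neutrophil markers, 7 were present, and their summed RNA was 566 to 4096 CPM in the 6 Rps15 clones against 28.4 to 507 CPM in the other 18. H137Y clone 6 had the 4096. Camp, another neutrophil marker, was under 0.5 CPM throughout. Macrophage markers, the cell type best known for heme iron recycling, summed to 65.5 to 136 CPM in the Rps15 clones and 113 to 182 CPM elsewhere, with C1qa, C1qb, Cd163, Marco, Mrc1, Spic and Vcam1 under 0.5 CPM everywhere. The mast cell list summed to 342 to 580 CPM and 352 to 599 CPM, with Gata2, Cpa3 and Mcpt8 present and Kit, Mcpt4, Ms4a2 and Tpsb2 under 0.5 CPM. Its footprints summed to 317 to 863 CPM in P131S and 157 to 404 CPM in H137Y. They summed to 122 to 204 CPM in WT, and to 92.0 to 357 CPM over WT and the large-subunit clones together. Erythroid markers separated the Rps15 genotypes: their RNA summed to 71.8 to 116 CPM in P131S, 177 to 428 CPM in H137Y and 121 to 146 CPM in WT. Over WT and the large-subunit clones together the range was 93.5 to 190 CPM, which overlaps both. The part of these markers in the iron gene results was not tested.

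Of the 10 genes, 8 had enough counts to be tested. Aco1 had 1 count over all 24 RNA libraries and 4 over all footprint libraries, and Slc40a1 had 1 and 1. A count of 0 allows up to 3 counts, which is 0.0784 to 0.230 CPM in RNA and 0.0416 to 0.192 CPM in footprints depending on the library. Iron regulatory protein 1 and ferroportin mRNAs were thus not detectable at this depth, apart from those single counts, in any genotype. These limits cover counting error only.

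The 8 genes were each tested with limma voom for 3 quantities: RNA, footprints, and the footprint change beyond the RNA change (translational efficiency, the interaction of assay and genotype). A gene is called where the p-value, adjusted by Benjamini-Hochberg over all genes tested, is under 0.05. All comparisons with WT share the same 3 WT clones. In bulk libraries, fewer cells of a type and less RNA per cell cannot be told apart. For RNA, Rpl5+/- had none of the 8 genes called, where 0.897% of all genes tested were; 2 of the 8 had an unadjusted p under 0.05, and edgeR and DESeq2 called 0. Rpl11+/- had 2 (12.5% of all genes), Rpl22+/- 1 (4.33%), Rpl22-/- 1 (5.11%) and Rpl10 R98S 3 (13.4%). P131S had all 8 tested genes called, 4 higher and 4 lower, where 47.2% of all genes were, and H137Y had 5 (41.4%). Most calls thus came from the Rps15 genotypes, in which a large share of all genes was called too.

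For footprints, none of the 8 was called in Rpl5+/- (0.00617% of all genes), Rpl11+/- (0.228%) or Rpl22-/- (0.234%). At an unadjusted p under 0.05 these had 0, 3 and 3 of the 8, edgeR called 0 in each, and DESeq2 called 1 in Rpl11+/- (Ncoa4). Rpl22+/- had 1 (0.148%) and Rpl10 R98S 1 (2.45%), and in both that gene was Fth1. P131S had 3 (19.1%) and H137Y 4 (12.9%). For translational efficiency none was called in Rpl5+/- (0%), Rpl11+/- (0%), Rpl22+/- (0.0543%) or Rpl22-/- (0.0302%). Unadjusted, these had 0, 0, 3 and 1 of the 8, edgeR called 0 in each, and DESeq2 called 2 in Rpl22+/- (Fth1 and Fbxl5). Rpl10 R98S had 1 (0.344%), P131S 1 (3.86%) and H137Y 2 (3.17%). The genes behind the last 4 calls were the ferritin chains and Ncoa4, the receptor that takes ferritin to the lysosome. The fit for translational efficiency did not pair the assays of a clone. With the clone as a block, the calls against WT in translational efficiency were 8, among them Ncoa4 in Rpl22-/-. Rpl22-/- includes clone 30, whose Rpl22 footprints were at the Rpl22+/- level. Without that clone, the number of calls against WT was the same for RNA, footprints and translational efficiency.

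Fth1 RNA, which encodes the ferroxidase chain of ferritin, was 1255, 1443 and 1588 CPM in WT and 2426, 1888 and 1847 CPM in P131S. H137Y had 1624, 1803 and 1662 CPM, and the 15 clones of the other 5 genotypes lay between 1349 and 1949 CPM. All P131S clones were above all WT clones, and so were the H137Y clones, though the lowest of them by little. Fth1 RNA rose in P131S by 0.52 ± 0.11 (log2 change ± SE; adjusted p = 0.00065). The H137Y change of 0.25 missed the threshold (adjusted p = 0.071) and passed it without WT clone 3 (adjusted p = 0.0385).

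Footprints on Fth1 did not follow its RNA. WT had 431, 473 and 423 footprint CPM, Rpl5+/- 484, 487 and 478, and Rpl11+/- 430.3, 607 and 569.9. Rpl22+/- had 286, 262 and 244 CPM, Rpl22-/- 421, 365 and 415, and Rpl10 R98S 320.3, 333 and 257. P131S had 366, 396 and 479 CPM and H137Y 858, 769.6 and 681. The order therefore put H137Y at the top, clear of the next genotype (Rpl11+/-), and Rpl10 R98S and Rpl22+/- at the bottom, overlapping each other and clear of Rpl22-/- and WT. Fth1 footprints rose in H137Y by 0.80 ± 0.13 (adjusted p = 0.000363), a call that stood with any clone left out. They fell in Rpl22+/- (−0.74 ± 0.13, adjusted p = 0.0216) and in Rpl10 R98S (−0.55 ± 0.13, adjusted p = 0.0266). Neither fall was firm: the Rpl22+/- call was lost without WT clone 1, WT clone 2 or any of the Rpl22+/- clones (adjusted p up to 0.17), and the Rpl10 R98S call without any of its 6 clones (0.0517 to 0.153). Footprints in P131S were not called against WT (−0.10, adjusted p = 0.642).

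**Figure D1:**
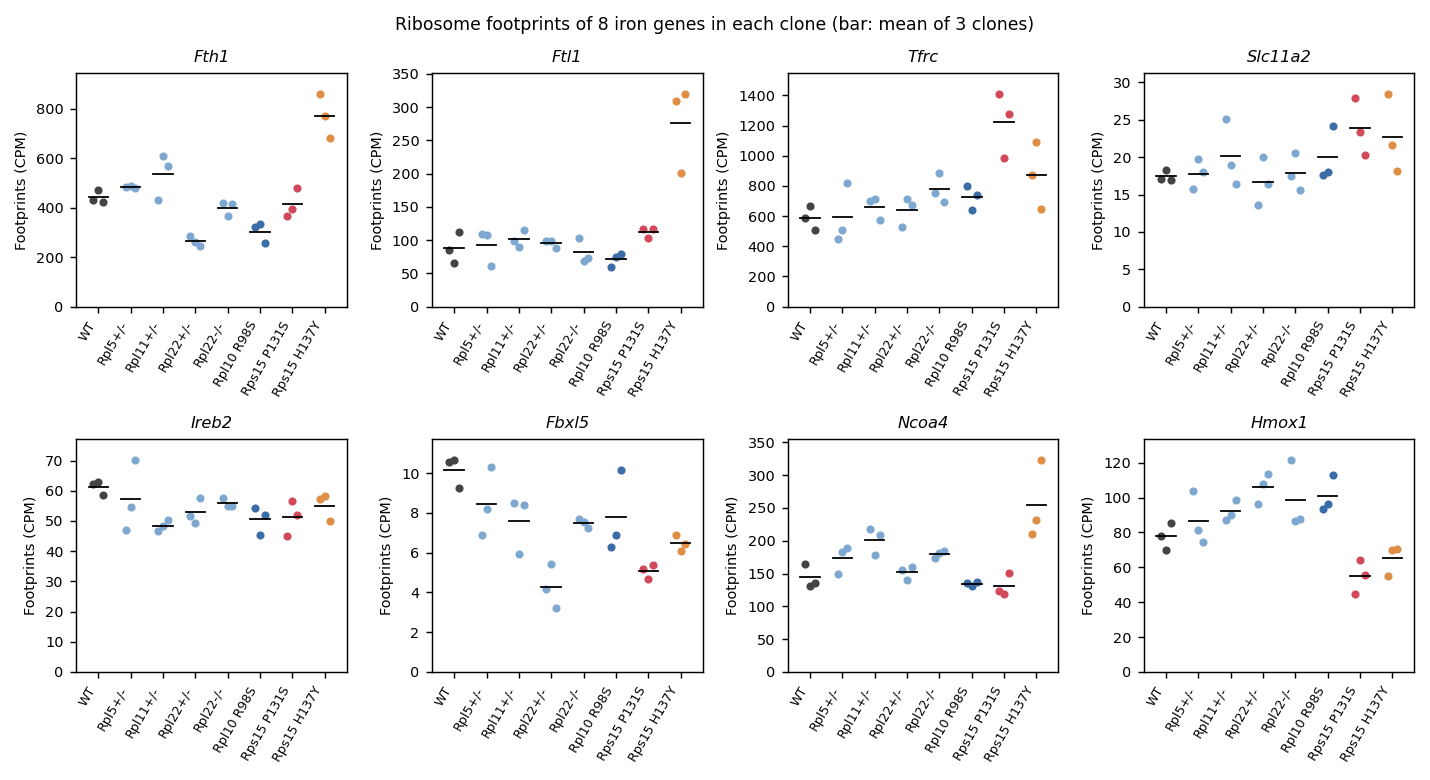
Ribosome footprints on the 8 tested iron genes in CPM (vertical axes) by genotype (horizontal axes), 1 point for each of the 3 clones and a bar at the mean. Fth1 and Ftl1 are highest in the H137Y clones (681 to 858 CPM for Fth1), and Fth1 is lowest in Rpl22+/- and Rpl10 R98S.

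The footprint-to-RNA ratio of Fth1 was 0.344, 0.328 and 0.266 in WT, which placed the gene above 17.9% of 10676 genes in WT, with a median ratio of 0.796 over all of them. The ratio takes no account of how much of each mRNA is coding, so it orders genotypes better than genes. It was 0.175, 0.171 and 0.165 in Rpl10 R98S, 0.176, 0.187 and 0.158 in Rpl22+/-, and 0.151, 0.210 and 0.259 in P131S. All 9 of these clones lay below all WT clones. H137Y stood on the other side with 0.528, 0.427 and 0.410, above every other clone of the panel. As a share of the WT mean, the ratio was 54.5% in Rpl10 R98S, 55.6% in Rpl22+/-, 66.2% in P131S and 146% in H137Y.

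Translational efficiency of Fth1 fell in Rpl10 R98S by 0.89 ± 0.17 (adjusted p = 0.00847) and in P131S by 0.65 ± 0.17 (adjusted p = 0.0269). The change in Rpl22+/-, −0.84 ± 0.18, just missed the threshold (adjusted p = 0.0533) and passed it without Rpl22+/- clone 16. The Rpl10 R98S call was lost without WT clone 1 or WT clone 2 (adjusted p up to 0.0896), and the P131S call without WT clones 1 or 2 or P131S clones 20 or 24 (up to 0.302, with −0.43 without clone 20), without the filter on low counts, and in a fit of only the groups compared. In H137Y the change was 0.53 (adjusted p = 0.09), and it was called once the clone was added as a block, with adjusted p = 0.0479.

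**Figure D2:**
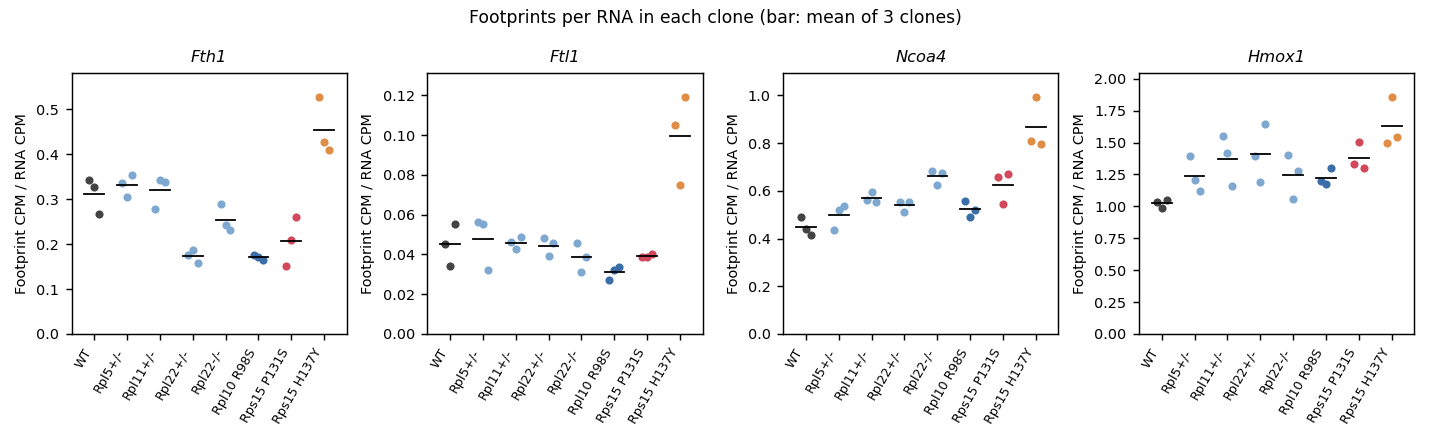
Footprint CPM divided by RNA CPM of the same clone (vertical axes) for Fth1, Ftl1, Ncoa4 and Hmox1 by genotype (horizontal axes), with 1 point per clone and a bar at the mean of 3. The H137Y clones have the highest Fth1 ratios of the panel (0.410 to 0.528), while the Rpl22+/- and Rpl10 R98S clones lie between 0.158 and 0.187.

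Ftl1 RNA, for the ferritin chain that helps lay down the iron core, was 1874, 1905 and 2015 CPM in WT. P131S had 3010.5, 2639 and 2899 CPM and H137Y 2943, 2671 and 2675, while the large-subunit genotypes lay between 1900.2 and 2518 CPM. The 6 Rps15 clones were above all 18 others. Ftl1 RNA rose in P131S by 0.56 ± 0.08 (adjusted p = 1.58e-05) and in H137Y by 0.52 ± 0.08 (adjusted p = 4.53e-05).

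Footprints on Ftl1 parted the Rps15 mutants that its RNA held together. WT clones had 85.1, 65.5 and 112 footprint CPM, P131S 116, 103 and 117, and H137Y 309.7, 200.3 and 319. Every H137Y clone was above every other clone of the panel, while P131S overlapped WT. Ftl1 footprints rose in H137Y by 1.66 ± 0.22 (adjusted p = 6.58e-05), and the P131S change of 0.39 was not called (adjusted p = 0.244). The ratio was 0.0454, 0.0344 and 0.0555 in WT, 0.0386, 0.0389 and 0.0404 in P131S, and 0.105, 0.0750 and 0.119 in H137Y. In WT, 1.7% of genes had a lower ratio than Ftl1, counted here without the near-identical copy described below. Translational efficiency rose in H137Y by 1.12 ± 0.23 (adjusted p = 0.00366), a call lost without the filter on low counts and in a fit of only the groups compared.

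Short footprints could be split between Ftl1 and a near-identical copy. The row ENSMUSG00000062382, which the table names Ftl1-ps2, a ferritin light chain pseudogene, held 48.5% ± 8.29 (SD, n = 3) of all light-chain footprints in WT but 0.856% of light-chain RNA. Its footprint share was 18.1% ± 4.13 in P131S and 29.6% ± 5.36 in H137Y, and group means in the large-subunit genotypes ran from 34.5% to 48.9%. With the copies summed, light-chain footprints were 175, 145 and 184 CPM in WT, 136.8, 132.9 and 140.1 in P131S, and 459, 299 and 417 in H137Y. H137Y clones were again above all others. The mean WT ratio was 0.0862 with the copies summed and 0.0451 for Ftl1 alone, and no rank among genes was made for the summed ratio. The summed Ftl1 footprints rose in H137Y by 1.20 (adjusted p = 0.000216), and the P131S value changed sign, to −0.29 (adjusted p = 0.304). Summed translational efficiency fell in P131S by 0.87 (adjusted p = 0.00923), and in H137Y it was 0.66 and no longer called (adjusted p = 0.0578), though it was called with the clone as a block (0.67, adjusted p = 0.0281). How the light chain differs from WT in efficiency thus depends on how the copy is counted. Named heavy-chain pseudogenes each held under 1 CPM of footprints, 0.844 CPM at most, so the Fth1 values do not turn on those. Copies of Fth1 under other names were not looked for.

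**Figure D3:**
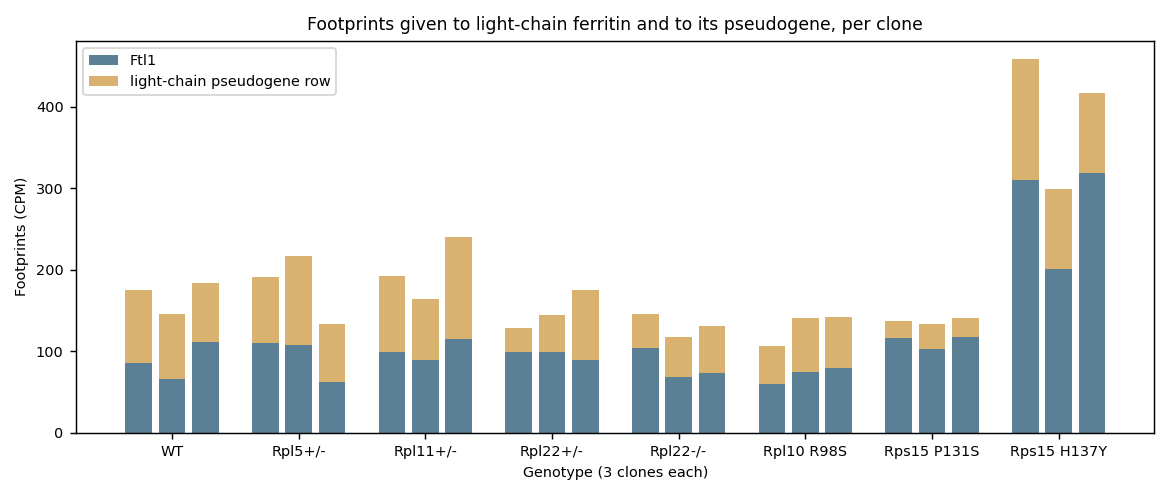
Stacked bars of light-chain ferritin footprints per clone in CPM (vertical axis), split into those given to Ftl1 and those given to its pseudogene, for the 24 clones grouped by genotype. The pseudogene holds 48.5% of the WT footprints on average and 18.1% in P131S, and the summed bars are tallest in the H137Y clones.

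Tfrc, the receptor that takes up transferrin-bound iron, had 398, 388 and 393 RNA CPM in WT, 795, 537 and 554 in P131S, and 626, 663 and 372 in H137Y. Large-subunit clones ran from 370.3 to 562 CPM. P131S clones were all above WT, whereas H137Y clone 6 was below every WT clone. Tfrc RNA rose in P131S by 0.66 ± 0.19 (adjusted p = 0.00971), a call lost without P131S clone 20 (0.47, adjusted p = 0.0778). The H137Y change of 0.45 was not called (adjusted p = 0.0718), and without H137Y clone 6 it was 0.71 (adjusted p = 0.00254). edgeR (adjusted p = 0.047) and DESeq2 (adjusted p = 0.0147) called the Tfrc RNA change in H137Y with all clones. That clone also had the highest neutrophil marker sum, whose part was not tested.

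Tfrc footprints were 589, 664 and 510.3 CPM in WT, 1406, 987 and 1275 in P131S, and 869.5, 1094 and 645 in H137Y. P131S clones were above all WT clones, and H137Y overlapped WT through clone 6. Tfrc footprints rose in P131S by 1.05 ± 0.20 (adjusted p = 0.00113), and this held with any clone left out. In H137Y the change was 0.55 (adjusted p = 0.0821), or 0.75 without clone 6 (adjusted p = 0.0277), and DESeq2 called it with all clones (adjusted p = 0.034). No genotype changed Tfrc translational efficiency by the test.

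Slc11a2, encoding the iron transporter DMT1, had 20.5, 23.9 and 20.2 RNA CPM in WT, 28.7, 29.7 and 28.2 in P131S, and 27.4, 29.4 and 30.7 in H137Y. No Rps15 clone overlapped WT. Slc11a2 RNA rose in P131S by 0.43 ± 0.09 (adjusted p = 0.000604) and in H137Y by 0.44 ± 0.09 (adjusted p = 0.000529). Rpl10 R98S, at 27.5, 24.4 and 26.6 CPM, also rose (0.28, adjusted p = 0.0492), but the call was lost in 5 of 6 fits that left out 1 of its clones or a WT clone (adjusted p 0.0342 to 0.194). Slc11a2 footprints were 17.1, 18.2 and 16.9 CPM in WT and 18.1 to 28.4 CPM in the Rps15 clones, with no call against WT.

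**Figure D4:**
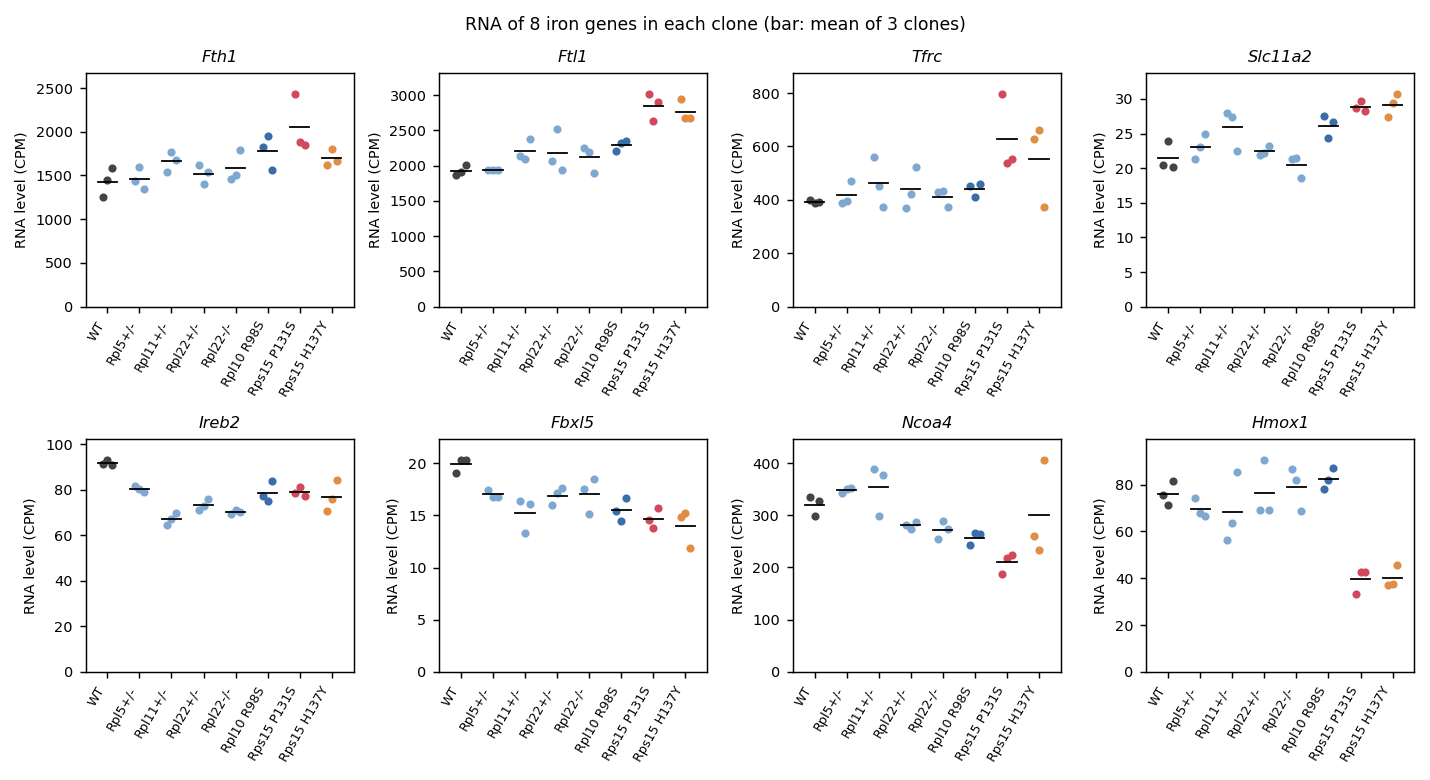
RNA of the 8 tested iron genes in CPM (vertical axes) by genotype (horizontal axes), 1 point per clone and a bar at the mean of 3. Ftl1 and Slc11a2 lie higher and Hmox1 lower in all 6 Rps15 clones than in WT, and Ireb2 and Fbxl5 lie lower than WT in the clones of all 7 mutant genotypes.

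The ferritin chains and Tfrc, whose RNA rose in P131S, can be read beside their promoters. RefSeq windows on GRCm38.p6, from 250 bases before to 50 after the start, were matched for 6 of the 10 genes. The motif CCAAT, on either strand, was present in 3 of their 10 windows (Fth1, Ftl1 and Tfrc) and in 37.4% of all 32851 windows. Counted by window, it was no more frequent among the members. Counted by gene it was in 3 of the 6, with no share by gene made for all genes, so so few windows cannot decide its frequency. The RNA of Slc11a2 rose in P131S as well. The stretch around it is shown for these 3, 5′ to 3′ on the strand of the gene, with CCAAT or its complement ATTGG in capitals: bases 100 to 1 before the start for Ftl1 (chr7:45459887-45459986, minus strand) and Fth1 (chr19:9982546-9982645, plus strand), and 164 to 65 before it for Tfrc (chr16:32608732-32608831, plus strand). The Fth1 window is that of a start inside the gene span given above.
Ftl1: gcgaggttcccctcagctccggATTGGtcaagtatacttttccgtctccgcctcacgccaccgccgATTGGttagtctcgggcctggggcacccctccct
Fth1: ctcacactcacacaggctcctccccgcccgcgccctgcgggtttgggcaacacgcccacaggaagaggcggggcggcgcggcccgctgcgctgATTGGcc
Tfrc: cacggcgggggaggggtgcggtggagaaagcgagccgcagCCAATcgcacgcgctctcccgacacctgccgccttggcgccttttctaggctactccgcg

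The antioxidant-type motif TGACNNNGC, searched on both strands, was in 1 member window (Ncoa4) and in 12.4% of all windows. A match describes letters in a window and nothing about binding.

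Ireb2 RNA, for the iron regulatory protein that FBXL5 removes, was below WT in every clone of every mutant genotype. WT clones had 91.5, 93.2 and 91.0 CPM, Rpl5+/- 81.9, 80.5 and 79.1, and Rpl11+/- 64.6, 67.2 and 69.8. Rpl22+/- had 71.3, 73.0 and 76.1 CPM, Rpl22-/- 69.5, 71.4 and 70.1, and Rpl10 R98S 77.3, 74.9 and 83.7. P131S had 78.7, 81.4 and 77.4 CPM and H137Y 70.9, 75.9 and 84.2. These genotypes all share the same WT clones, whose Ireb2 values lay within 3 CPM of each other, so the agreement in direction is not 7 separate observations. Ireb2 RNA fell in Rpl11+/- (−0.45, adjusted p = 0.000108), Rpl22-/- (−0.39, adjusted p = 0.000519), Rpl22+/- (−0.32, adjusted p = 0.00229) and H137Y (−0.26, adjusted p = 0.00144). It also fell in Rpl10 R98S (−0.23, adjusted p = 0.0136) and P131S (−0.21, adjusted p = 0.00535), while Rpl5+/- was not called (−0.19, adjusted p = 0.139). The Rpl10 R98S call was lost without WT clone 2, A29 or A30 (adjusted p up to 0.0939), and the Rpl22-/- call stood without clone 30. Ireb2 footprints were 62.1, 62.9 and 58.7 CPM in WT and 45.1 to 70.3 CPM elsewhere, with changes from −0.34 to −0.10 and no call.

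Fbxl5 RNA was 19.04, 20.32 and 20.31 CPM in WT, 16.4, 13.3 and 16.1 in Rpl11+/-, 15.4, 14.4 and 16.6 in Rpl10 R98S, 14.5, 13.8 and 15.7 in P131S, and 14.9, 15.3 and 11.8 in H137Y. As with Ireb2, no mutant clone of any genotype reached the lowest WT clone, the other genotypes lying between 15.1 and 18.5 CPM. Fbxl5 RNA fell in H137Y (−0.51, adjusted p = 0.000356), P131S (−0.44, adjusted p = 0.00121), Rpl11+/- (−0.39, adjusted p = 0.0142) and Rpl10 R98S (−0.38, adjusted p = 0.0139). The Rpl11+/- call was lost without WT clone 2, WT clone 3 or Rpl11+/- clone 406, and the Rpl10 R98S call without WT clone 2, WT clone 3 or A30.

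Fbxl5 footprints were 10.6, 10.7 and 9.24 CPM in WT, 4.15, 5.42 and 3.22 in Rpl22+/-, 5.15, 4.68 and 5.37 in P131S, and 6.89, 6.10 and 6.42 in H137Y. These groups lay below WT without overlap. Fbxl5 footprints fell in P131S by 1.01 ± 0.22 (adjusted p = 0.00262) and in H137Y by 0.66 ± 0.21 (adjusted p = 0.0398), and the H137Y call was lost without any of the 6 clones compared (0.0568 to 0.168). The change in Rpl22+/-, −1.21 ± 0.25, was larger in size and not called (adjusted p = 0.0539), but it was called by edgeR and by DESeq2.

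Ncoa4, the ferritin receptor of selective autophagy, had 335, 298 and 327 RNA CPM in WT, 188, 218 and 224 in P131S, and 259.6, 233 and 406 in H137Y. P131S was the lowest genotype of the panel and lay clear of the next one, Rpl10 R98S, whereas H137Y was split by clone 6. Ncoa4 RNA fell in P131S by 0.61 ± 0.14 (adjusted p = 0.00122). In H137Y the change was −0.14 (adjusted p = 0.449), and without clone 6 it was −0.38 (adjusted p = 0.00288).

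Ncoa4 footprints were 165, 132 and 136 CPM in WT, 124, 119 and 150.4 in P131S, and 210.2, 231 and 323 in H137Y. H137Y clones lay above WT but overlapped Rpl11+/- (mean 201 CPM), and P131S overlapped WT. Ncoa4 footprints rose in H137Y by 0.79 ± 0.14 (adjusted p = 0.000733). The footprint-to-RNA ratio was 0.492, 0.441 and 0.415 in WT and 0.810, 0.994 and 0.796 in H137Y, higher there than in any other clone. WT had the lowest mean ratio of all genotypes (0.449). Ncoa4 translational efficiency rose in H137Y by 0.91 ± 0.20 (adjusted p = 0.00628), a call lost in a fit of only the groups compared. With the clone as a block it was called in P131S too (0.45, adjusted p = 0.0124, against 0.254 without the block) and in Rpl22-/- (adjusted p = 0.0413, against 0.791).

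Hmox1 RNA, for the enzyme that opens the heme ring, was 75.5, 71.1 and 81.4 CPM in WT. P131S had 33.3, 42.7 and 42.8 CPM, H137Y 36.9, 37.6 and 45.6, and the large-subunit clones 56.4 to 90.6. The 6 Rps15 clones were below all 18 others. Hmox1 RNA fell in P131S by 0.95 ± 0.14 (adjusted p = 1.93e-05) and in H137Y by 0.93 ± 0.14 (adjusted p = 2.8e-05), the largest RNA changes among the 8 tested genes against WT. Hmox1 footprints were 78.2, 70.0 and 85.3 CPM in WT, 44.4, 64.4 and 55.7 in P131S, and 55.1, 69.8 and 70.5 in H137Y. The footprint fall was smaller: −0.52 ± 0.16 in P131S (adjusted p = 0.0271) and −0.27 in H137Y, not called (adjusted p = 0.311). The P131S footprint call was lost without WT clone 1, WT clone 3 or P131S clones 20 or 63 (adjusted p up to 0.171). The Hmox1 ratio was lowest in WT (mean 1.02) and highest in H137Y (1.63), a change of 0.65 in translational efficiency that was not called (adjusted p = 0.111) and was called with the clone as a block (adjusted p = 0.00882).

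The Rps15 genotypes were then set against each other, a comparison that uses no WT clone. For RNA, 1 of the 8 genes was called (25.5% of all genes tested), for footprints 3 (4.03%) and for translational efficiency 2 (0.591%). P131S was below H137Y in Fth1 footprints by 0.90 ± 0.13 (adjusted p = 0.000405), in Ftl1 footprints by 1.26 ± 0.22 (adjusted p = 0.00204) and in Ncoa4 footprints by 0.93 ± 0.14 (adjusted p = 0.000592, or 0.0661 in a fit of only the groups compared). Fth1 footprints ran from 366 to 479 CPM in P131S and from 681 to 858 in H137Y, and Ftl1 and Ncoa4 did not overlap either. In RNA, the P131S minus H137Y difference was 0.04 for Ftl1 (adjusted p = 0.75) and −0.02 for Hmox1 (adjusted p = 0.937), and −0.47 ± 0.14 for Ncoa4 (adjusted p = 0.0157). The Ncoa4 RNA call was lost without H137Y clone 6 (−0.23, adjusted p = 0.0742) or P131S clone 20 (−0.40, adjusted p = 0.0837), and in a fit of only the groups compared (−0.48, adjusted p = 0.193).

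Translational efficiency was lower in P131S than in H137Y by 1.17 ± 0.17 for Fth1 (adjusted p = 0.000501), a call that stood with each clone left out. For Ftl1 it was lower by 1.31 (adjusted p = 0.00291; not called without the filter on low counts or in a fit of only the groups compared), and by 1.54 with the pseudogene summed (adjusted p = 6.9e-05). Both ferritin chains therefore had fewer footprints per RNA in P131S than in H137Y, however the light-chain copy was counted. For Ncoa4 the difference was −0.46 (adjusted p = 0.364), and −0.47 with the clone as a block (adjusted p = 0.0266). Tfrc footprints differed the other way, by 0.50, without a call (adjusted p = 0.176). Erythroid marker RNA summed to 428, 315 and 177 CPM in H137Y clones 16, 2 and 6 and to 71.8 to 116 CPM in P131S. Footprints on these markers summed to 312 to 1148 CPM in H137Y, 96.7 to 199 CPM in P131S and 133 to 271 CPM in WT. Over WT and the large-subunit clones together they ran from 129 to 438 CPM, with Rpl11+/- at 277 to 438 CPM. Within H137Y, clone 6 had the lowest of these sums and the lowest Fth1 footprints, but the highest Ftl1 and Ncoa4 footprints. The part of these markers was not tested.

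**Figure D5:**
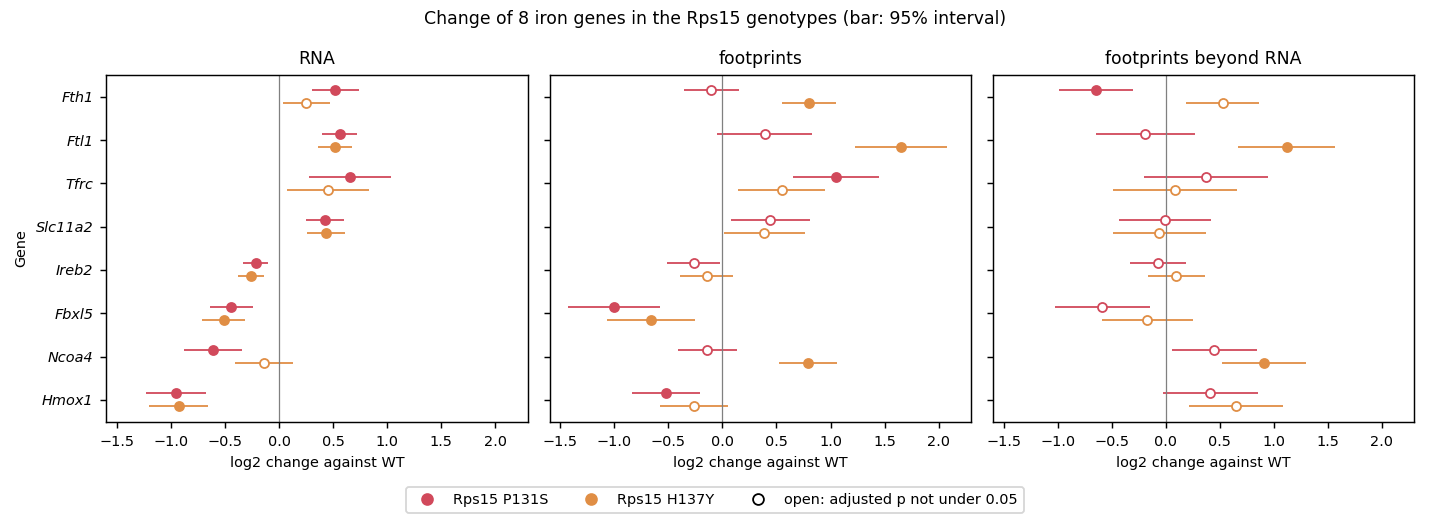
Log2 change from WT (horizontal axis) with its approximate 95% interval for the 8 tested genes in P131S and H137Y, in separate panels for RNA, footprints and translational efficiency. The interval uses a normal quantile, so it is narrower than a t interval would be. Filled points have an adjusted p under 0.05: the genotypes lie close together for Ftl1 and Hmox1 RNA and apart for Fth1, Ftl1 and Ncoa4 footprints.

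The mean of the Rps15 genotypes was also compared with the mean of the 5 large-subunit genotypes. For RNA, 7 of the 8 genes were called (52.9% of all genes tested), 4 higher and 3 lower. Hmox1 was lower by 0.92 (adjusted p = 3.87e-08), Ncoa4 by 0.28 (adjusted p = 0.00674) and Fbxl5 by 0.18 (adjusted p = 0.0198). Tfrc was higher by 0.42 (adjusted p = 0.00496), Ftl1 by 0.39 (adjusted p = 1.21e-06), Slc11a2 by 0.30 (adjusted p = 6.87e-05) and Fth1 by 0.22 (adjusted p = 0.0068). Ireb2 alone was not called (0.08, adjusted p = 0.0666), though it was by DESeq2 (adjusted p = 0.0286), and without Rpl10 R98S clone A34 (adjusted p = 0.047) or H137Y clone 16 (adjusted p = 0.017). The Fbxl5 call was lost without H137Y clone 6 or P131S clone 24.

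For footprints, 5 of the 8 were called in that comparison (25.6% of all genes tested): Ftl1 (1.00, adjusted p = 1.6e-05), Tfrc (0.61, adjusted p = 0.000827), Fth1 (0.56, adjusted p = 2.56e-05) and Slc11a2 (0.34, adjusted p = 0.0302) higher, and Hmox1 lower (−0.70, adjusted p = 2.67e-05). The Slc11a2 call was lost without H137Y clone 16 or P131S clone 20. For translational efficiency 3 were called (7.77% of all genes tested): Ftl1 (adjusted p = 0.00431), Ncoa4 (0.39, adjusted p = 0.0373) and Fth1 (0.32, adjusted p = 0.0463). The Ftl1 value fell to 0.17 with the pseudogene summed and was no longer called (adjusted p = 0.447). The Ncoa4 call was lost without Rpl22-/- clone 649, H137Y clone 2, or P131S clones 20 or 63, and the Fth1 call without Rpl22-/- clone 649, H137Y clone 16, or P131S clones 24 or 63. P131S and H137Y differed from each other in ferritin footprints, so this mean averages over that difference. Between Rpl22-/- and Rpl22+/- none of the 8 genes was called in RNA (0% of all genes), footprints (0%) or translational efficiency (0.0121%). Unadjusted, 0, 2 and 2 of the 8 had a p under 0.05. edgeR called 0 at each level, and DESeq2 called 2 in footprints (Fth1 and Fbxl5). This comparison includes Rpl22-/- clone 30, whose Rpl22 footprints were at the Rpl22+/- level, which limits what it can show.

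Other iron genes, in lists fixed by function, moved in both directions in the Rps15 mutants. Their counts are to be read beside the share of all genes called in the same RNA comparison, 47.2% in P131S and 41.4% in H137Y, and no list was tested for a difference from that share. Of 18 tested genes of iron uptake, transport and chaperoning, 5 rose and 1 fell in P131S RNA, and 8 rose and none fell in H137Y RNA, below and near those shares. The list's median log2 change was 0.10 in P131S and 0.20 in H137Y, beside −0.02 and −0.005 over all genes. Flvcr1, a heme exporter, rose in P131S (0.83, adjusted p = 1.39e-05) and H137Y (0.66, adjusted p = 0.000205), and the iron chaperone Pcbp1 rose in P131S (0.69, adjusted p = 1.44e-07). In heme synthesis, export and breakdown, 5 of 16 rose and 2 fell in P131S (47.2% of all genes called), and 6 rose and 3 fell in H137Y (41.4%). Alas1, the rate-limiting enzyme of heme synthesis outside red cells, rose in RNA by 1.20 in P131S (adjusted p = 0.00219) and by 1.02 in H137Y (adjusted p = 0.00803). Its mean footprints were 48.1 CPM in WT, 164 in P131S and 140 in H137Y, rises of 1.75 (adjusted p = 0.00038) and 1.32 (adjusted p = 0.00582). Uros, a later enzyme of the same pathway, rose by 0.76 and 0.82, and Blvrb, a biliverdin reductase downstream of Hmox1, fell in P131S by 0.74.

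Among 28 tested genes of iron-sulfur cluster assembly, 14 rose and 3 fell in P131S RNA (47.2% of all genes called), and 8 rose and 4 fell in H137Y, near the 41.4% of all genes. The largest P131S rises were in Bola2 (0.79, adjusted p = 3.85e-06), Ciapin1 (0.79, adjusted p = 3.12e-07) and Nubp2 (0.77, adjusted p = 2.65e-06). Hscb, the co-chaperone that hands nascent clusters on in mitochondria, fell by 0.42 (adjusted p = 0.000871). Of 9 genes of iron regulatory protein turnover and ferritin autophagy, 3 rose and 2 fell in P131S RNA (47.2% of all genes called), while in footprints none rose and 4 fell (19.1% of all genes called). Rb1cc1, an autophagy initiation scaffold, fell in footprints by 0.64 in P131S and 0.70 in H137Y, and Cul1, the cullin of the FBXL5 ligase, by 0.62 in P131S. Usp1, a deubiquitinase, fell in translational efficiency by 1.03 in P131S (adjusted p = 0.00048) and 0.79 in H137Y (adjusted p = 0.00899). Of 15 regulators and targets of Nrf2 and Bach1, the factors that activate and repress Hmox1, 8 rose and 2 fell in each Rps15 genotype, where 47.2% and 41.4% of all genes were called. Nqo1, a quinone reductase, rose in H137Y RNA by 1.00, and Bach1 itself fell in P131S RNA by 0.70 (adjusted p = 0.000153), while Hmox1 RNA fell as given above. Of 11 ferroptosis genes, 2 rose in each Rps15 genotype, 2 fell in P131S and 3 in H137Y, shares below or near the 47.2% and 41.4% of all genes. Slc3a2, a subunit of the cystine importer, fell by 0.69 and 0.88. Of 6 other mRNAs known to carry an iron-responsive element, only 2 had enough RNA counts to be tested. In RNA, 1 rose and 1 fell in P131S (47.2% of all genes called), and 1 rose in H137Y (41.4%). In footprints and translational efficiency 3 were tested, and none was called in any comparison. In footprints 19.1% of all genes were called in P131S and 12.9% in H137Y, and in translational efficiency 3.86% and 3.17%.

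In the large-subunit genotypes fewer of all genes were called, and fewer of these. None of the lists above had a called gene in Rpl5+/- RNA (0.897% of all genes). In Rpl11+/- RNA (12.5% of all genes), 2 uptake genes and 3 iron-sulfur genes rose, and 1 heme gene rose and 1 fell. There, 2 Nrf2 and Bach1 genes rose and 1 fell, and 1 turnover gene and 3 ferroptosis genes fell. Of the other mRNAs with an iron-responsive element, 1 fell there. In Rpl10 R98S RNA (13.4% of all genes), 3 uptake genes rose, 3 heme genes rose and 1 fell, 2 iron-sulfur genes rose and 3 fell, and 1 turnover gene fell. The Nrf2 and Bach1 list and the ferroptosis list each had 1 gene higher and 1 lower there. Rpl22+/- (4.33% of all genes) had 1 iron-sulfur gene higher and 2 Nrf2 and Bach1 genes higher with 1 lower, and Rpl22-/- (5.11%) had 1 and 2 higher and none lower.

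The genes whose RNA followed 4 of the members most closely were found by Pearson's r of log2 CPM over the 24 clones and 12814 genes, as a description, since clones of a genotype share their mutation. Hmox1 was most like Epb41l2 (r = 0.948), Rwdd2a (0.944) and Rhbdd1 (0.943), and over the 18 clones outside Rps15 these values were 0.561, 0.693 and 0.666. Ftl1 was most like Traf7 (0.911), Txn2 (0.894) and Plekhj1 (0.894), with 0.686, 0.776 and 0.528 outside Rps15. Tfrc was most like Helq (0.922), Vps33b (0.899) and Tma16 (0.896), with 0.726, 0.809 and 0.754 outside Rps15. Fth1 had the loosest followers of the 4, Psmc5 (0.811), Dbr1 (0.801) and Gm7666 (0.791), with 0.6, 0.771 and 0.498 outside Rps15. Neither ferritin chain was among the other's closest 3.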

How the data were processed

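Estimated counts per gene were deposited by the authors as 1 table of 48 libraries, and 11.46% of values carry decimals. STAR 2.6.1d, Salmon 1.4.0, DESeq2 1.30 and build GRCm38 are listed per the submitters' processing notes, without their roles. The 10 genes and the wider lists were chosen with earlier results of these data known. All 10 were named in every comparison, and of each wider list the largest called changes whose 3 clones cleared WT. Genes with 10 counts in at least 3 libraries were kept (12814 in RNA, 16214 in footprints, 16573 together). limma 3.58.1 voom was fitted in R 4.3.3 to unrounded counts with edgeR 4.0.16 TMM scaling (0.913 to 1.061 in RNA, 0.877 to 1.079 in footprints), robust variances, 2-sided tests and Benjamini-Hochberg adjustment, and was tested on simulated data. CPM values are scaled by TMM. Both assays of a clone came from 1 lysate, and their deviations correlated in 24 of 24 clones (r 0.188 to 0.641). Alternatives were edgeR quasi-likelihood and DESeq2 1.42.0 on rounded counts, upper-quartile scaling, no filter, only the groups compared, each clone left out, the clone as a block, and ferritins summed with named pseudogenes. The last was repeated with clones left out and with the block after seeing the data. Footprints per codon were planned and not made, since no protein lengths were used here. Some values of single genes in the wider lists are not reported here.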

Additional observations from a re-analysis of the deposited data

Results flagged for a closer look

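The Rps15 mutants P131S and H137Y differed from each other in 6 of the 24 gene and quantity combinations tested, by limma voom with Benjamini-Hochberg adjustment, in a contrast that leaves out WT. By quantity, these were 1 of 8 genes in RNA, where 25.5% of all genes tested were called, 3 in footprints (4.03%) and 2 in translational efficiency (0.591%). Each value is the log2 difference P131S minus H137Y. Ncoa4 RNA differed by −0.473, or by −0.23 and no longer called without H137Y clone 6, and its footprints differed by −0.931. Fth1 footprints differed by −0.901 and Fth1 translational efficiency by −1.172. Ftl1 footprints differed by −1.263 and Ftl1 translational efficiency by −1.309. In each case P131S was the lower. The wild-type clones lay between the mutants for the Fth1 ratio and overlapped P131S for the Ftl1 ratio, but lay between the mutants for Ftl1 summed with its pseudogene. No group has more than 3 clones, so no single clone was tested as an outlier.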

How the results depend on the processing

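No result changed direction past a threshold. Over all alternatives, called results kept their call in 812 fits and lost it in 85, and results not called stayed so in 2291 and passed in 50. Against WT, 20 RNA calls became 17 to 22 with 1 clone left out, and 9 footprint calls became 5 to 9, with 5 without WT clone 1. The 4 calls in translational efficiency became 2 to 5 with 1 clone left out, 8 with DESeq2, 1 with only the groups compared (fewer samples), and 8 with the clone as a block. The clones pair the assays by lysate. The block added calls for Ncoa4 (P131S, Rpl22-/- and P131S minus H137Y), Fth1 and Hmox1 (both H137Y), given above. With the light-chain pseudogene summed, it also added Ftl1 in H137Y (0.67, adjusted p = 0.0281). It changed no other call. The cause of the DESeq2 difference was not tested. With 3 clones per genotype, WT clones 1 and 2 decide several Fth1 calls. The light-chain pseudogene limits Ftl1. Levels were not compared between genes.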
